A study of Saccharomyces cerevisiae with 12 samples.

Results

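The 10 genes described here encode mannoproteins of the budding yeast cell wall, and they were taken by name, as 10 of the 6612 features in the RNA-seq tables. Of them, 7 encode proteins joined to the wall through a GPI anchor: CWP1 (YKL096W), CWP2 (YKL096W-A), CCW12 (YLR110C), CCW14 (YLR390W-A), TIR1 (YER011W), TIP1 (YBR067C) and SED1 (YDR077W). The other 3, PIR1 (YKL164C), HSP150 (YJL159W) and CIS3 (YJL158C), belong to the Pir family. Poly(A) RNA was sequenced from Saccharomyces cerevisiae BY4741, here WT, and from dus1Δ dus2Δ dus3Δ dus4Δ, here DUS KO, which was made to remove all 4 dihydrouridine synthases. By their labels both strains were grown to mid-log phase, with no treatment named, and 3 RNA-seq libraries of each were analysed. The paper's methods name no growth phase and give a culture density for RNA isolation instead. The comparison asks whether the steady levels of these mRNAs differed between WT and the libraries labelled with the 4 deletions, which is what DUS KO stands for throughout. DUS KO came from a cross of strains FX-34 and FX-42, each lacking a pair of the genes, followed by sporulation and tetrad dissection, so it is a segregant rather than a direct derivative of WT. Nothing in the descriptions says that the 3 libraries of a strain came from separate cultures, and p-values measure only the spread between these libraries.

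The wall of budding yeast is a layer of beta-glucan and chitin under an outer coat of highly mannosylated proteins. GPI-linked wall proteins are made with a lipid anchor in the secretory pathway and are then transferred from the membrane to glucan, whereas Pir proteins carry short internal repeats through which they are linked directly to glucan by a bond that mild alkali breaks. Many of their genes respond to the cell cycle, to stress or to oxygen, and the cell wall integrity pathway raises several of them when the wall is damaged.

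All 10 coding regions are a single exon with no intron in the R64 assembly. CWP2 (chromosome XI, 259253 to 259531) and CWP1 (chromosome XI, 261132 to 261851) lie on the plus strand with 1600 nt between their coding parts. HSP150 (chromosome X, 120449 to 121690, plus strand) and CIS3 (chromosome X, 122265 to 122948, minus strand) face each other across 574 nt. PIR1 (chromosome XI, 141794 to 142819, minus strand) points away from its relative PIR3, with 1581 nt between them. The remaining members stand apart: CCW12 on chromosome XII, 369697 to 370098, minus strand, CCW14 on chromosome XII, 903724 to 904440, plus strand, TIR1 on chromosome V, 175248 to 176012, plus strand, TIP1 on chromosome II, 372103 to 372735, minus strand, and SED1 on chromosome IV, 600793 to 601809, plus strand. Coding lengths ran from 279 nt in CWP2 to 1242 nt in HSP150.

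Family members share stretches of identical DNA, shown here because they decide which counts can be assigned to 1 gene. In each sequence, read 5′ to 3′ along the coding strand of R64, the capitals mark the run that is identical in both genes and the lower case marks 10 nt on each side. CIS3 and HSP150 share 65 nt, at 122440 to 122504 in CIS3 and 121451 to 121515 in HSP150:
CIS3: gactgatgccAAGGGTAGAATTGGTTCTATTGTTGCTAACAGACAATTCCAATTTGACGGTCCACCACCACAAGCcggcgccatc
HSP150: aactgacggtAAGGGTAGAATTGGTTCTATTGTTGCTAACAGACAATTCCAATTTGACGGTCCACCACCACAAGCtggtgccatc
PIR1 and PIR3 share 81 nt near the start of both, at 142701 to 142781 in PIR1 and 144439 to 144519 in PIR3:
PIR1: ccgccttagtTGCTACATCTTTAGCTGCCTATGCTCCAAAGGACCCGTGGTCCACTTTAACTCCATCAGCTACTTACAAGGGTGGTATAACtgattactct
PIR3: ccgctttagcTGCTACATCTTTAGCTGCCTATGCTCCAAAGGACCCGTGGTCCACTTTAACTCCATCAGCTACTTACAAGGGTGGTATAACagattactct
TIR1 and TIR2 share a shorter run of 40 nt, at 175467 to 175506 in TIR1 and 346692 to 346731 of chromosome XV in TIR2:
TIR1: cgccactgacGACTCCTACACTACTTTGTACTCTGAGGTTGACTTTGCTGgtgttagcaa
TIR2: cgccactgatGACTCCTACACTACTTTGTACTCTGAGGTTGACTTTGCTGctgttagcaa

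The effective length in the deposited tables was 59 nt below the coding length in 6557 features, which is the number of start points of a 60 nt window. Of such windows, 6 of 625 in CIS3 and 6 of 1183 in HSP150 are identical between the pair, 40 of 967 in PIR1 and 40 of 919 in PIR3 are, and none is between TIR1 and TIR2. The counts behaved accordingly. HSP150 and CIS3 each had counts that were not whole in 6 of 6 libraries, with a tolerance of 0.02, but their sum was whole in every one, and the same held for PIR1, not whole in 5 libraries, with PIR3. The other 7 members had whole counts in every library. Values of HSP150, CIS3 and PIR1 are therefore estimates that depend on how the authors divided shared reads, and each is given below also as the sum with its partner. CCW12 and its close relative CCW22 share no run longer than 22 nt; CCW22 was not analysed here.

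The proteins share a composition that the choice by name did not use. Serine and threonine, the residues that carry O-linked mannose, made up 22.0% of PIR1, the lowest of the 10, and 42.4% of CCW14, the highest, with 41.7% in SED1. The median over 5898 translated coding regions was 13.7%, and at least 96.4% of these had a lower share than each of the 10 members. GC content of the coding regions ran from 45.6% in PIR1 to 52.0% in CCW12, against a median of 39.8%. The core of the Pir repeat (glutamine, isoleucine or valine, any residue, aspartate, glycine, glutamine) was found 11 times in HSP150 and 8 times in PIR1. CIS3 had it 1 time, and so did CWP1, CWP2 and TIR1. The motif was present in 12 proteins in all, and only 4 of these held it at least 2 times, HSP150, PIR1, PIR3 and PIR5.

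Total estimated counts ranged from 4336794 to 5652837 in the 3 WT libraries and were 5500084, 2856581 and 656162 in DUS KO, so low mRNAs are least certain in DUS KO replicate 3. The deleted genes were checked first. DUS1 and DUS4 had 0 counts in every DUS KO library and at least 50 in each WT library, and DUS2 had 0, 0 and 3 against at least 112. DUS3 had 64.1, 52.2 and 6.49 estimated counts in DUS KO against 129, 82 and 112 in WT, and it shared reads with YLR400W. In CPM (the share of a library's counts, here after TMM scaling, and called normalized counts from here on), the sum of the pair was 35.3, 19.0 and 34.8 in WT against 20.5, 30.9 and 32.7 in DUS KO, which overlap, with a log2 fold change of -0.12 (SE 0.35, edgeR adjusted p = 0.956). The lower DUS3 values thus depend on how shared reads were divided. These counts cannot decide on the loss of DUS3, since the shared reads may come from either feature. They show that of DUS1 and DUS4, and that of DUS2 apart from the 3 counts in DUS KO replicate 3. Those were 4.46 normalized counts, against at least 22.6 in WT, and their source was not tested. The paper reports PCR genotyping of the strain, with primers for DUS3 among others. It also detected dihydrouridine in poly(A) RNA of WT but not of DUS KO. LYS2, a lysine biosynthesis gene that the strain name does not list, had 2, 0 and 1 counts in DUS KO against 148, 330 and 86 in WT, so the strains differ in more than the DUS genes, and what belongs to which difference cannot be told apart. Between the strains, edgeR's quasi-likelihood test called 5 of 5884 features at an adjusted p under 0.05, or 0.085%. These were DUS1, DUS2, DUS4, LYS2 and the acid phosphatase gene PHO12, named only because it was called. Leaving out WT replicate 1 gave 12 calls, and leaving out DUS KO replicate 1 gave 1.

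Levels were compared between genes as TPM, which divides by length. CCW12, whose small protein is needed for a stable wall, was the highest in all 6 libraries. It had 2060, 1749 and 3619 TPM in WT against 2257, 2675 and 2787 TPM in DUS KO, which placed it between rank 44 and rank 99 of all features. CWP2, a major structural mannoprotein, was next, with 1250, 1111 and 1978 TPM in WT against 1542, 1439 and 1628 TPM in DUS KO. These mRNAs together held from 83.9% to 87.5% of the TPM of the 10 genes. A wide gap followed, since CWP2 was between 6.07 and 8.86 times CIS3 within a library.

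The middle of the range held 7 genes. CIS3, a Pir protein, averaged 188 ± 46.3 TPM in WT and 204 ± 20.3 in DUS KO (SD, n = 3), and SED1, a wall protein that becomes abundant in stationary cells, 171 ± 102 and 152 ± 9.25. TIP1, first described as induced by cold and heat shock, averaged 118 ± 15.8 and 96.9 ± 11.7 TPM, and HSP150, a heat-inducible Pir protein, 97.2 ± 70.8 and 64.8 ± 9.12. CCW14, a protein of the inner wall layer, averaged 59.4 ± 33.8 and 54.7 ± 7.50 TPM, PIR1 45.1 ± 16.3 and 45.4 ± 9.38, and CWP1 52.6 ± 25.5 and 26.1 ± 1.50. The order of neighbours among these genes was not kept in all libraries. Between CIS3 and PIR1 each neighbour was ahead in 5 of 6 libraries, and PIR1 was ahead of CWP1 in 4 of 6, 3 of which were DUS KO. Only the steps from CCW12 to CWP2, from CWP2 to CIS3 and from CWP1 to TIR1 held in 6 of 6.

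TIR1, whose protein is known from cold shock and from growth without oxygen, stood far below the rest. It had 8.29, 5.82 and 8.27 TPM in WT against 2.74, 3.34 and 5.56 TPM in DUS KO. Its rank lay between 2058 and 4221 of 6612 features, so in these cultures its mRNA was not an abundant one, in contrast to the other 9 genes, whose lowest rank in any library was 1243.

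**Figure D1:**
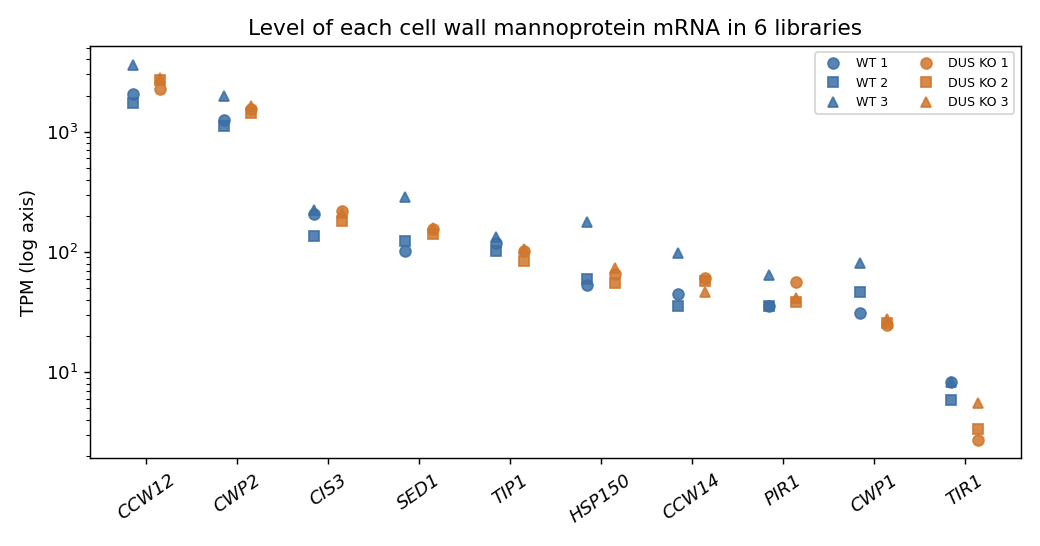
TPM of the 10 mannoprotein mRNAs on a log axis, ordered by the mean over 6 libraries, with WT in blue and DUS KO in orange and 1 marker shape for each replicate. CCW12 and CWP2 lie at 1111 TPM or more in every library, and TIR1 at 8.29 TPM or less.

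The 10 genes together took 0.543%, 0.492% and 1.00% of the counts in WT against 0.542%, 0.653% and 0.643% in DUS KO. WT replicate 3 thus stood above the other 5 libraries, and it did so for most of the members taken singly. In normalized counts, 8 of the 10 members had their highest value in that library, against 44.9% of 69 other wall genes and 17.4% of all features tested. Relative to the mean of WT replicates 1 and 2, its value was 2.81 times for HSP150, 2.27 times for SED1, 2.18 times for CCW14, 1.85 times for CWP1, 1.69 times for CCW12, 1.59 times for PIR1 and 1.49 times for CWP2. CIS3, TIP1 and TIR1 were less apart, at 1.17, 1.08 and 1.05 times. The median was 1.64 for the 10 members, 1.28 for the other wall genes and 0.998 for all features. The median coefficient of variation of the members was 30.7% in WT and 11.98% in DUS KO. For the other wall genes it was 32.3% and 16.7%, so they too were more even in DUS KO. Over all features it was 30.6% and 25.1%. Fold changes of the members are given below with and without this library.

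**Figure D2:**
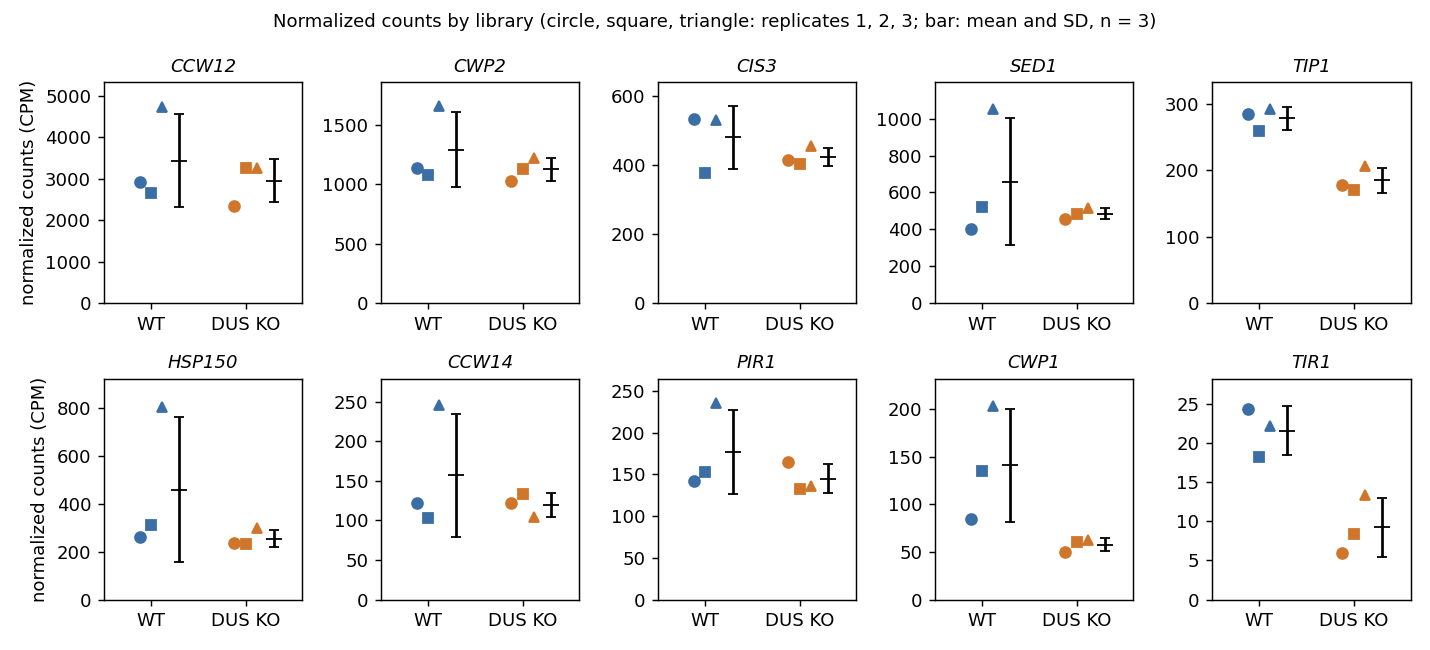
Normalized counts (CPM after TMM scaling) of each mannoprotein gene, 1 panel a gene, each axis from 0, with circle, square and triangle for replicates 1, 2 and 3 and bars for the mean and SD of 3 libraries. The WT triangle is the highest point in 8 panels, and the DUS KO points lie below all WT points for CWP1, TIP1 and TIR1.

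None of the 10 genes was called between DUS KO and WT by edgeR, and 3 of them (CWP1, TIR1 and TIP1) were below an unadjusted p of 0.05, all with lower values in DUS KO. Over all features 4.93% had an unadjusted p under 0.05 with a lower value and 3.33% with a higher one. DESeq2 called 1 member, CWP1, and limma-voom none. All 10 fitted fold changes were below 0, with a median of -0.41 on the log2 scale, where 51.6% of all features were below 0 and their median was -0.02. In log2(TPM + 1) the median of all features was 0.22, 26.9% were below 0, and 5 of the 10 members were, with a median of 0.00. All 10 members lay below the median of all features on both scales. Without WT replicate 3 only 6 members were below 0 and 7 below the median of all features, and the members' median was -0.07. In RNA from whole cultures, fewer cells that express a gene and less of its mRNA in each cell cannot be told apart.

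CWP1 encodes a mannoprotein close in position to CWP2 but far less abundant. It had 84.5, 135 and 203 normalized counts in WT against 49.8, 60.5 and 62.4 in DUS KO. The WT libraries were spread over a wide range, the DUS KO libraries were close together, and the groups did not overlap. Its mean in DUS KO was 40.9% of that in WT, a log2 fold change of -1.31 (SE 0.29, edgeR adjusted p = 0.198). The gene was called in 2 of 17 alternatives, with DESeq2 (adjusted p = 0.00608), which called 2.06% of the 2576 features it gave an adjusted p, and by edgeR without WT replicate 1 (adjusted p = 0.0298), where 0.201% of features were called. Over the 17 alternatives, edgeR, DESeq2 and limma gave adjusted p-values from 0.00608 to 0.698 and log2 fold changes from -1.57 to -0.88. Without WT replicate 3 the value was -0.95.

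TIR1 had 24.3, 18.2 and 22.2 normalized counts in WT against 5.89, 8.37 and 13.4 in DUS KO. The groups did not overlap, and here WT replicate 3 was not the highest. These rest on few reads, namely 106, 90 and 99 counts in WT against 35, 26 and 9 in DUS KO, and the 9 counts have an exact Poisson 95% interval from 4.12 to 17.1, which covers counting error only. On the log2 scale its difference was -1.35 (SE 0.43, edgeR adjusted p = 0.389). It stayed below 0 in all 15 alternatives that gave it a value, from -1.62 to -0.82, and was -1.32 without WT replicate 3. Of these, 14 gave an adjusted p, none past the threshold, and DESeq2 gave none.

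TIP1 had 284, 259 and 292 normalized counts in WT against 177, 171 and 206 in DUS KO, without overlap and with the smallest spread in WT of any member, a coefficient of variation of 6.16%. Its log2 fold change was -0.60 (SE 0.17, edgeR adjusted p = 0.340). It was -0.57 without WT replicate 3, and without any 1 library it stayed between -0.68 and -0.55. Non-overlap in this direction was seen for 7.68% of all features tested, and in the other direction for 7.82%. It was seen for CWP1, TIR1 and TIP1 among the members, and for none in the other direction. In TPM, where 2.01% of features had every DUS KO library below every WT library, CWP1 and TIR1 did and TIP1 did not, with 119, 102 and 134 TPM in WT against 102, 83.7 and 106 in DUS KO.

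The most abundant members differed little beside their spread. CCW12 had 2930, 2652 and 4722 normalized counts in WT against 2355, 3261 and 3255 in DUS KO, so that the DUS KO libraries lay within the WT range or below it. The fitted log2 fold change was -0.22 (SE 0.23, edgeR adjusted p = 0.863), and 0.08 without WT replicate 3. CWP2 had 1140, 1080 and 1655 in WT against 1032, 1125 and 1220 in DUS KO, with the groups again overlapping. On the log2 scale its difference was -0.20 (SE 0.19, edgeR adjusted p = 0.847), and 0.02 without WT replicate 3. In log2(TPM + 1) both were above 0, at 0.12 for CCW12 and 0.13 for CWP2, but below the median of all features there.

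SED1 and CCW14 also changed sign without WT replicate 3, as CCW12 and CWP2 did. SED1 had 403, 523 and 1051 normalized counts in WT against 456, 483 and 518 in DUS KO, and all DUS KO libraries lay between WT replicates 1 and 2. The log2 fold change of SED1 was -0.44 (SE 0.29, edgeR adjusted p = 0.741) with that library and 0.07 without it. CCW14 had 122, 103 and 245 in WT against 122, 133 and 104 in DUS KO. With that library CCW14 was at -0.38 on the log2 scale (SE 0.29, edgeR adjusted p = 0.783), and at 0.10 without it.

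Of the Pir members, HSP150 had 260, 312 and 805 normalized counts in WT against 235, 233 and 297 in DUS KO, the widest WT spread of the 10 genes. The groups overlapped, because DUS KO replicate 3 lay above WT replicate 1. The fitted log2 fold change was -0.86 (SE 0.39, edgeR adjusted p = 0.623), and -0.18 without WT replicate 3. CIS3 had 534, 376 and 531 in WT against 416, 402 and 453 in DUS KO, with a log2 fold change of -0.18 (SE 0.19, edgeR adjusted p = 0.859), and -0.11 without WT replicate 3. Unlike HSP150, it was not higher in WT replicate 3 than in WT replicate 1. Added together, which undoes the division of shared reads, HSP150 and CIS3 had 794, 688 and 1336 normalized counts in WT against 650, 635 and 750 in DUS KO, again with WT replicate 3 the highest, and the log2 fold change was -0.47 (SE 0.23, edgeR adjusted p = 0.616).

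PIR1 had 143, 153 and 235 normalized counts in WT against 165, 133 and 137 in DUS KO, with a log2 fold change of -0.28 (SE 0.22, edgeR adjusted p = 0.793), and -0.02 without WT replicate 3. PIR3 itself had few reads, with 7.47, 22.8 and 16.7 estimated counts in WT against 7.54, 5.16 and 0 in DUS KO, and was removed by the filter on low counts. The sum of PIR1 and PIR3 had a log2 fold change of -0.30 (SE 0.22, edgeR adjusted p = 0.767), close to that of PIR1 alone.

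**Figure D3:**
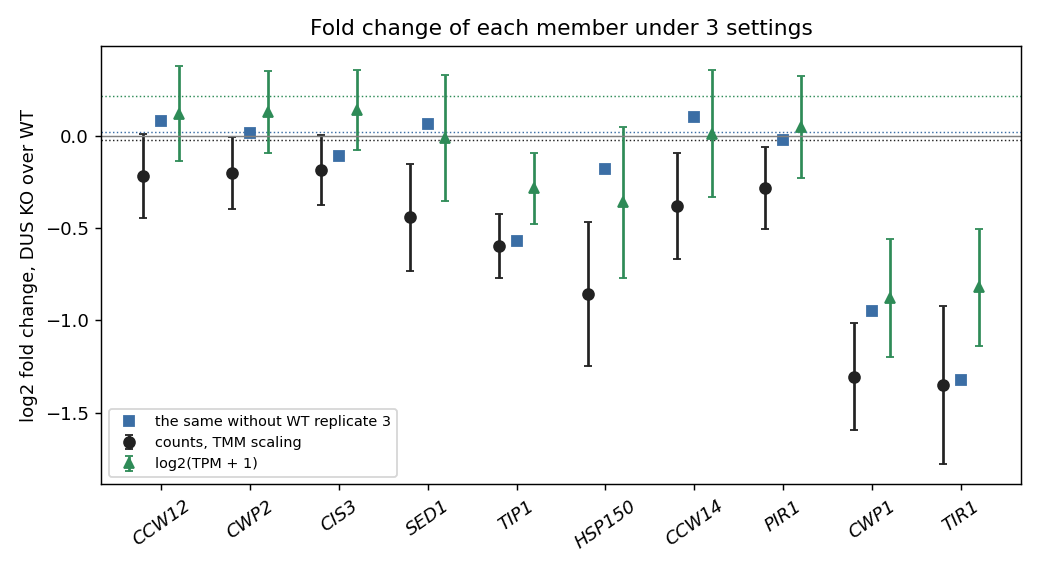
Log2 fold change of DUS KO over WT for each mannoprotein gene from counts with TMM scaling (black, bars show the SE), from the same fit without WT replicate 3 (blue, no error drawn) and from log2(TPM + 1) (green, bars show the SE), with dotted lines at the median of all features in each. All 10 black points lie below 0, while only CWP1, TIR1, TIP1 and HSP150 are below 0 under all 3 settings.

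Ratios within a library do not depend on how libraries are scaled. The pairs given here were chosen after their values had been seen, and they are descriptions without a test. The TPM of CWP2 was 40.5, 24.0 and 24.5 times that of CWP1 in WT and 62.2, 55.8 and 58.7 times in DUS KO, so the neighbours on chromosome XI were further apart in every DUS KO library than in any WT library. CWP2 over TIR1 was 151, 191 and 239 in WT against 562, 431 and 293 in DUS KO, also without overlap. CWP1 and TIR1 did not overlap between the groups in TPM either, so these ratios add little to those values. The ratio of the leading pair, CCW12 over CWP2, overlapped, at 1.65, 1.57 and 1.83 in WT against 1.46, 1.86 and 1.71 in DUS KO. SED1 over TIP1 overlapped too, at 0.850, 1.21 and 2.16 in WT against 1.54, 1.70 and 1.50 in DUS KO. HSP150 over CIS3 was 0.257, 0.439 and 0.801 in WT against 0.298, 0.307 and 0.346 in DUS KO, so the WT libraries differed among themselves more than the strains did. That ratio also depends on how the reads shared by HSP150 and CIS3 were divided.

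**Figure D4:**
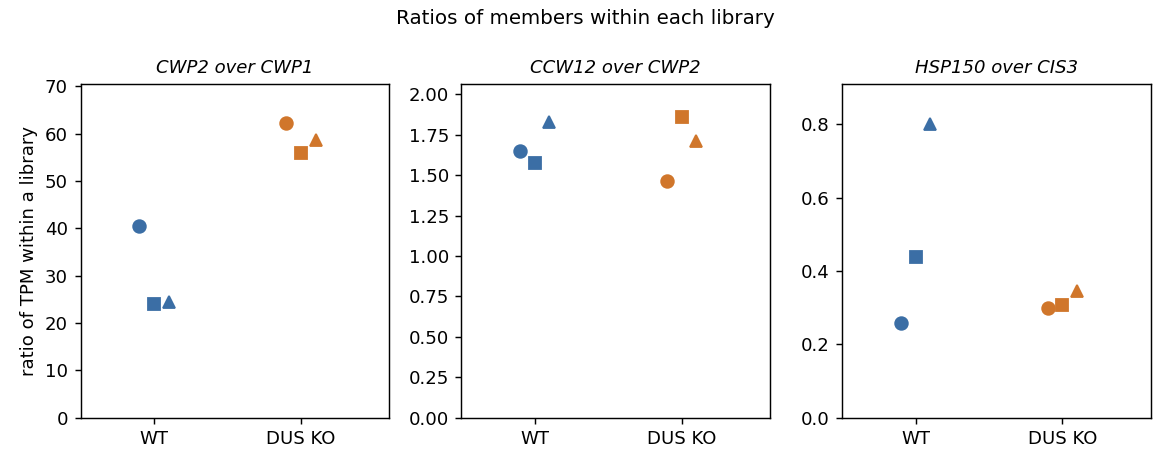
Ratio of TPM within each library for 3 pairs of mannoprotein genes, each axis from 0, with circle, square and triangle for replicates 1, 2 and 3 of WT (blue) and DUS KO (orange). CWP2 over CWP1 is at most 40.5 in WT and at least 55.8 in DUS KO, and the other pairs overlap.

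Sequence relatives of the members were scarce. Of 9 listed, 8 were in the tables and 6 passed the filter, with 4 fold changes below 0 and 2 above, a median of -0.42 (-0.08 in TPM, -0.15 without WT replicate 3), and none called. TIR3, of the family induced without oxygen, had 4.12, 6.05 and 26.7 normalized counts in WT against 1.35, 5.47 and 2.97 in DUS KO, and a fitted value of -1.92 (SE 0.84, edgeR adjusted p = 0.577) that was -0.64 without WT replicate 3. TIR2 was at -0.64 (-0.38 without WT replicate 3), TIR4 at -0.19 and DAN4, of the same family, at -1.58. TIR4 and SPI1, a relative of SED1 with a fold change of 0.27, changed sign with the scaling or with 1 library. PIR5, a Pir relative known from sporulation, was higher in every DUS KO library than in any WT library. It had 5.50, 5.04 and 4.49 normalized counts in WT against 7.57, 9.98 and 13.4 in DUS KO, and was at 0.99 (SE 0.61, edgeR adjusted p = 0.703). These values rest on 24, 25 and 20 counts in WT against 45, 31 and 9 in DUS KO. DAN1 did not pass the filter.

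The genes that build, remodel and watch over the wall gave no call either. In 6 lists of 72 genes, which include the 9 relatives above, 71 were in the tables and 69 were tested. By edgeR 0 were called, 5 had an unadjusted p under 0.05 with a lower value in DUS KO and 4 with a higher one, and no alternative, DESeq2, limma-voom and limma on TPM included, called any. Those 5 were TIR3, SIM1, UTH1, ROM2 and RLM1 and those 4 included CHS1, DSE4 and AMN1, of which UTH1, ROM2, DSE4 and AMN1 are named only for these values. The lists' median log2 fold change was -0.05, against -0.41 for the 10 mannoprotein genes and -0.02 for all features, and in log2(TPM + 1) the values were 0.24, 0.00 and 0.22. The mannoproteins thus lay lower than these genes on both scales, with no test of that difference. Without WT replicate 3 the 10 members were again the lower, at -0.07 against 0.15 for the other wall genes, which then lay above the 0.02 of all features.

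Of the genes listed under glucan and chitin remodelling, 13 of 18 were below 0, with a median of -0.23. In TPM only 4 were below 0 and the median was 0.12, and without WT replicate 3 the median was 0.09. The lowest was SIM1, a SUN family protein, at -1.07 (SE 0.43, edgeR adjusted p = 0.550). SIM1 had 74.9, 34.3 and 151 normalized counts in WT against 38.9, 39.3 and 47.5 in DUS KO, so it too was highest in WT replicate 3, and its value was -0.40 without that library. The highest was EXG2, an exoglucanase, at 0.32. Genes of glucan and chitin synthesis had a median of -0.07 (0.25 in TPM, 0.03 without WT replicate 3), from GFA1, which makes the precursor of chitin, at -0.52 (-0.02 without WT replicate 3) to the chitin synthase CHS1 at 0.67, and genes of protein mannosylation, which put the sugars on the mannoproteins, a median of 0.08 (0.34 in TPM, 0.14 without WT replicate 3), from KRE2 at -0.14 to PMT5 at 0.90. KRE2 was above 0 with total counts alone and in TPM.

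Genes of cell wall integrity signalling, the pathway that senses wall damage, were split evenly, 7 below 0 and 7 above, with a median of 0.01 (0.09 in TPM, 0.38 without WT replicate 3). RLM1, the transcription factor at the end of that pathway, had 12.1, 32.3 and 17.3 normalized counts in WT against 4.38, 7.73 and 5.94 in DUS KO. The groups did not overlap, but RLM1 had few reads, with 53, 160 and 77 counts in WT against 26, 24 and 4 in DUS KO. On the log2 scale its difference was -1.79 (SE 0.50, edgeR adjusted p = 0.311), the lowest adjusted p among the 69 genes. With 1 library left out it ran from -2.08 to -1.31, the latter without WT replicate 2. SWI4, a subunit of a cell cycle transcription factor that the pathway also reaches, had 12.8, 1.82 and 8.97 in WT against 13.6, 22.2 and 22.3 in DUS KO and was at 1.28 (SE 0.60, edgeR adjusted p = 0.605). Genes of daughter cell separation had 7 of 9 above 0 and a median of 0.31 (0.54 in TPM, 0.52 without WT replicate 3). The lowest was EGT2, a wall protein of early G1 cells, at -0.18. EGT2 was above 0 in TPM and without WT replicate 3.

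**Figure D5:**
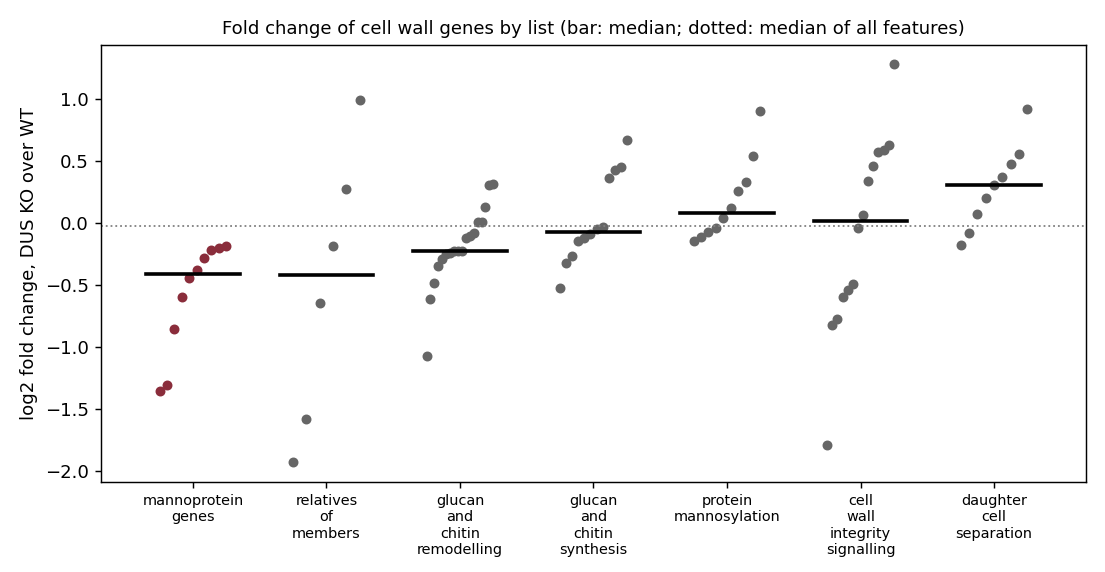
Log2 fold change of DUS KO over WT, from counts with TMM scaling, for the 10 mannoprotein genes (red) and 6 lists of other wall genes (grey), 1 point a gene, with a bar at each median and a dotted line at the median of all features. All red points lie below the dotted line, and the medians of the lists run from -0.42 for the relatives to 0.31 for daughter cell separation.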

How the data were processed

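RNA-seq tables of 3 WT and 3 DUS KO libraries were used, and the 6 D-seq libraries were not used here. The authors deposited, for each coding region, an estimated count, not normalized and not whole where reads were divided, and a TPM value, scaled by effective length and library total. Their methods describe adapter trimming, collapse of UMI duplicates and alignment with bbmap for the sequencing as a whole, and the submitters' processing notes name build sacCer3. The quantification program is not given in those sources. Of the 6612 features, 5917 were in the RefSeq R64 annotation and 5908 had its coding length, and sequences and coordinates came from RefSeq R64. Since reads were counted on coding regions only, reads from the ends of transcripts do not enter.

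Estimated counts were rounded, filtered with filterByExpr (5884 features kept, 728 removed), scaled by TMM and tested with edgeR 4.0.16 (quasi-likelihood, robust, no block) in R 4.3.3, with Benjamini-Hochberg adjustment over all features and a threshold of 0.05. The biological coefficient of variation was 37.5%. The test was checked on simulated data. Alternatives used limma 3.58.1 and DESeq2 1.42.0, other scalings and filters, TPM with pseudocounts of 1 and 0.1, summed features where 278 pairs shared reads, and libraries left out. Named genes were the 10 members, relatives and read-sharing features, the highest and lowest gene of each other list, any list gene past the threshold, the DUS genes and LYS2; 1 list gene that this rule names is not reported here. The members and lists were chosen with earlier results of these data known.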

Additional observations from a re-analysis of the deposited data

How the results depend on the processing

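The 5 features called by edgeR became 3 with total counts alone, 1 with at least 10 counts in every library, 53 with DESeq2, 0 with limma-voom (600 at an unadjusted p under 0.05), 10 with limma on log2(TPM + 1), 8 with the same and a mean TPM of at least 10, and 1 to 12 with 1 library left out. With the replicate block, 3 were called; the numbers share no source in the labels, and deviations of same-numbered libraries correlated at 0.03, -0.04 and -0.07, so they were not treated as pairs. Of the mannoprotein genes, 1 was called with DESeq2 and 0 to 1 with 1 library left out.

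Log2 fold changes that changed sign did so mainly on the TPM scale. There CWP2 was at 0.132, CCW12 at 0.122 and 0.123, CCW14 at 0.0142 and 0.0164, PIR1 at 0.0478 and 0.0495, CIS3 at 0.142 and 0.143, KRE2 at 0.167 and 0.171, EGT2 at 0.155 and 0.171, TIR4 at 0.162 and 0.575 and SPI1 at -0.00886 and -0.771. KRE2 was at 0.0419 with total counts alone, TIR4 at 0.394 with limma-voom, and with the replicate block TIR4 was at 0.353 and SPI1 at -0.0947. With 1 library left out, values ran from -0.316 to 0.0156 for CWP2, -0.374 to 0.0800 for CCW12, -0.607 to 0.102 for CCW14, -0.700 to 0.0653 for SED1, -0.748 to 0.523 for TIR4, -0.593 to 1.02 for SPI1 and -0.354 to 0.237 for EGT2, with the highest value without WT replicate 3 for all but SPI1. The cause was not tested. CWP1, TIR1, TIP1 and HSP150 stayed below 0 in every alternative that gave them a value. TIR1 could not be tested with at least 10 counts in every library or a mean TPM of at least 10, and DESeq2 gave it no adjusted p. The depth of DUS KO replicate 3, 656162 counts, left TIR1 with 9 counts there.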
